A study of Homo sapiens with 24 samples.

Results

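Selenoproteins are the proteins that carry the amino acid selenocysteine. The 32 genes described here are 24 selenoprotein genes and 8 genes for the factors that make selenocysteine, insert it or bring selenium into the cell. They were found by symbol among the 60617 genes of the deposited table. RNA-seq had been run on the head and neck squamous carcinoma line MDA686TU in 4 groups of 6 replicate libraries. The cells had no treatment (control), EGCG at 40 µM, resveratrol at 15 µM, or both agents at these doses (combination), for 24 h. EGCG, a catechin of the tea leaf, was dissolved in water, and resveratrol, a plant stilbene, came from a stock in DMSO. Whether DMSO was added to the control or EGCG cells is not given in the sources used here, so effects of resveratrol and of its solvent cannot be told apart. The line is 1 tumor cell line, and the labels number the replicates 1 to 6 without saying whether they were separate cultures, so p-values measure only the spread between these libraries, which may be technical.

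The libraries held 7034872 to 11735574 counts. The 8 squamous markers looked at, such as KRT5, KRT14 and TP63, summed to 13355 to 16306 CPM (a gene's count scaled to the library total) in every library, while the 5 endothelial and blood markers summed to at most 0.569. Of 5 fibroblast markers, 2 passed the filter on low counts, and the 5 summed to 125 to 150 CPM in the control and 102 to 123 with EGCG. In resveratrol libraries their sum was 158 to 184 CPM and in combination libraries 182 to 208. Nearly all of this sum was COL1A1, with 31872 counts over all 24 libraries. COL1A2 had 496, LUM 169, PDGFRB 20 and DCN 2, so the sum is not a measure of fibroblasts. The part of these markers in the results was not tested. The mitochondrial share of counts was 0.249% to 0.326% for replicates 1 to 3 of each group and 0.448% to 0.775% for replicates 4 to 6. The labels name no batch. Calls of members that were lost within either set are given beside the result. In bulk RNA, fewer cells that express a gene and less of its RNA per cell cannot be told apart.

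Selenocysteine is encoded by UGA, which elsewhere means stop. A hairpin in the 3′ untranslated region of each selenoprotein mRNA, the SECIS element, binds SECISBP2, which with the elongation factor EEFSEC and a dedicated tRNA has the ribosome read the UGA as selenocysteine. The amino acid is made on that tRNA by PSTK and SEPSECS from selenophosphate, which SEPHS2, itself a selenoprotein, produces. Where the UGA is not decoded, it can act as a premature stop, and an mRNA with a stop well upstream of its last exon junction can be degraded by nonsense-mediated decay. Selenoprotein mRNAs are known to differ in how strongly they depend on selenium supply.

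The codon for selenocysteine and its neighbours are shown for the 8 selenoproteins that changed with EGCG, since the results compare its place in the transcript with the change. The place did not fully separate those that fell from those that rose. TXNRD1, which fell, and SELENOO, which rose, both carry it near the end of the coding sequence. In the other 5 that fell it lay over 55 bases upstream of the last exon junction. Whether the place bears on the change was not tested. Each sequence is the coding strand of the MANE Select transcript (GENCODE v44, GRCh38), 12 bases on each side or up to the stop codon, with the codon in capitals.
SELENOW: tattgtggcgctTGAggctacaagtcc
SELENOH: cattgcactagcTGAcgcgtctatggg
GPX1: gtggcgtccctcTGAggcaccacggtc
GPX4: gtggcctcccagTGAggcaagaccgaa
SELENOT: atttgtgtttccTGAggttataggcgg
TXNRD1: caggctggctgcTGAggttaa
SEPHS2: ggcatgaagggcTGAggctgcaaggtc
SELENOO: ctgtgcgtgacaTGAtcttcgtaa
In SELENOW the codon lay at chr19:47780732-47780734 on the plus strand, in exon 2 of 6, as codon 13 of 87. In SELENOH it lay at chr11:57741816-57741818 (plus strand, exon 2 of 4) and in GPX1 at chr3:49358132-49358134 (minus strand, exon 1 of 2). In TXNRD1 it was codon 648 of 649, at chr12:104348413-104348415 in the last of 17 exons, and in SELENOO codon 667 of 669, at chr22:50217358-50217360 in the last of 9. SEPHS2 has a single exon, with the codon at chr16:30445548-30445550.

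In untreated cells the selenoprotein mRNAs covered a wide range, and most factors lay in its lower part. Levels of different genes were compared as FPKM, the authors' normalized count per gene length. GPX1, the cytosolic glutathione peroxidase that reduces hydrogen peroxide, was highest with 167 ± 13.9 FPKM (SD, n = 6), above 97.7% of the tested genes. TXNRD1, the cytosolic thioredoxin reductase, followed with 87.6 ± 1.76 FPKM. GPX4, the peroxidase that reduces lipid hydroperoxides in membranes, had 66.0 ± 4.79 FPKM. These 3 and the next in order, SELENOF at 51.9 ± 3.61 and SELENOT at 33.0 ± 1.64, did not overlap with their neighbours over the 6 libraries. From SELENOW at 20.4 ± 0.915 down to SELENOO at 8.54 ± 0.541, each member overlapped with the next, and this stretch held the factors SEPHS1 and EEFSEC. SECISBP2 had 4.68 ± 0.194 FPKM and could not be separated from TXNRD2. The lowest of the members that passed the filter on low counts were SCLY, TXNRD3 and PSTK, at 0.618 ± 0.0456, 0.385 ± 0.0621 and 0.364 ± 0.0459 FPKM.

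**Figure D1:**
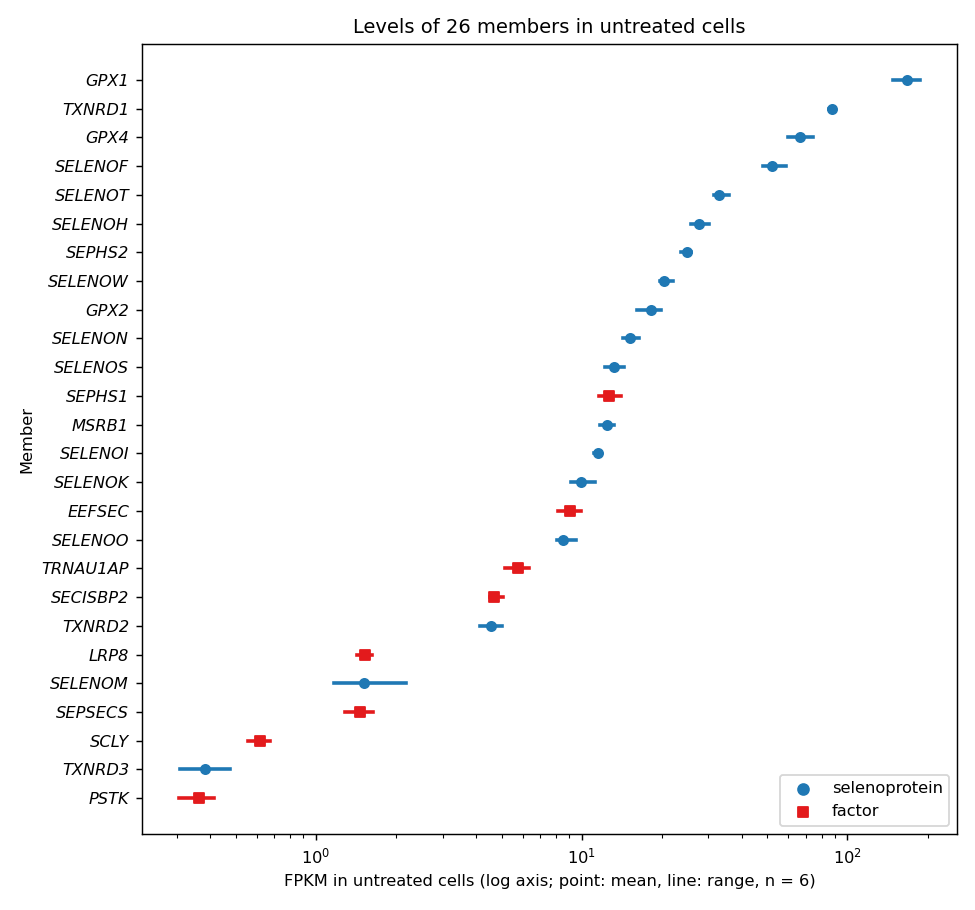
Level of the 26 members that passed the filter on low counts in the 6 untreated libraries, in FPKM on a log axis. Points are means, lines run from the lowest to the highest library, blue circles are selenoproteins and red squares are factors; GPX1 at 167 FPKM is highest and PSTK at 0.364 lowest.

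The filter on low counts was passed by 26 members, 18 of the 24 selenoproteins and 8 of 8 factors. SELENOV had no count in any library. SELENOP, the plasma selenium carrier, had 11 counts over all 24 libraries and the deiodinase DIO1 had 5. GPX3, the plasma peroxidase, had 78 counts, DIO2 had 88 and DIO3 had 41. These 6 genes were left out of the test. Without the filter edgeR could fit 5 of them, and none was called in any of the 6 comparisons, with 2 of 30 values at an unadjusted p under 0.05. In DESeq2, which gave an adjusted p for 9 of 30 values, none was called either, with 0 at an unadjusted p under 0.05. Differences were not detectable at this depth. The other members were tested together with all 15476 genes that passed.

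With EGCG alone, 8 selenoproteins changed and no factor passed the test. SELENOW fell 3.03-fold, SELENOH and GPX1 fell by a smaller amount, and TXNRD1, SELENOT and GPX4 fell slightly, while SELENOO and SEPHS2 rose. Changes were called with edgeR's quasi-likelihood test at the limits that the methods give, a Benjamini-Hochberg adjusted p under 0.1 together with p under 0.05. These 8 of 18 tested selenoproteins compare with 1.76% of all tested genes. The 6 that fell compare with 0.859% and the 2 that rose with 0.905%. The median log2 fold change of the 18 was -0.05, and that of all tested genes was 0.00090.

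SELENOW encodes a small cytosolic protein with a thioredoxin-like fold whose level is known to follow selenium supply. Its normalized count, the raw count divided by a size factor for the library, had a lowest, median and highest value of 905, 916 and 1010 in the control. In the EGCG libraries they were 290, 309 and 324. The highest EGCG library thus lay far below the lowest control library. The log2 fold change was -1.60 ± 0.0419 (SE; 3.03-fold lower; edgeR adjusted p = 2.18e-26). Within replicates 1 to 3 it was -1.59 and within replicates 4 to 6 it was -1.62.

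SELENOH is a nucleolar protein of the same fold family. Its normalized count was 520, 553 and 606 (lowest, median and highest) in the control and 326, 347 and 394 with EGCG. The groups did not overlap, and the log2 fold change was -0.66 ± 0.0501 (SE, edgeR adjusted p = 1.10e-11). GPX1 went from 1531, 1744 and 1941 in the control to 1062, 1129 and 1256 with EGCG. All EGCG libraries were again below all control libraries, with a log2 fold change of -0.59 ± 0.0461 (SE, edgeR adjusted p = 1.50e-11). Its processed copy GPX1P1 held 13.4% of the counts of both together and had a log2 fold change of -0.55, so reads of one may have been counted for the other.

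TXNRD1, the enzyme that keeps thioredoxin reduced, had 4985, 5121 and 5268 normalized counts (lowest, median and highest) in the control and 3954, 4090 and 4226 with EGCG. The groups did not overlap, although the change was small, a log2 fold change of -0.32 ± 0.0249 (SE, edgeR adjusted p = 1.25e-11). RPL18AP3, a pseudogene inside TXNRD1 on the same strand, had 60.0% as many counts and a log2 fold change of 0.02. SELENOT, a protein of the endoplasmic reticulum membrane with a thioredoxin-like fold, had 1136, 1166 and 1295 in the control and 970, 1016 and 1078 with EGCG. These ranges did not overlap either, and the log2 fold change was -0.22 ± 0.0507 (SE, edgeR adjusted p = 0.0145). The copy SELENOTP1 held 7.54% of the counts of both together, at -0.33 and not called, so reads may have been shared. SERP1, over SELENOT on the other strand, had 188% as many counts and a log2 fold change of -0.04. GPX4 had 1056, 1165 and 1305 in the control and 924, 1002 and 1091 with EGCG. Its groups overlapped at the edge, and the log2 fold change of -0.22 ± 0.0456 (SE) passed with an edgeR adjusted p of 0.00645. SELENOT did not pass within replicates 1 to 3 alone (-0.20), and GPX4 did not within replicates 4 to 6 alone (-0.16).

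SEPHS2, the selenophosphate synthetase, rose with EGCG. Its normalized count was 526, 557 and 576 (lowest, median and highest) in the control and 653, 672 and 712 with EGCG, without overlap. The log2 fold change was 0.29 ± 0.0428 (SE, edgeR adjusted p = 3.21e-05). SELENOO, a mitochondrial pseudokinase that transfers AMP to other proteins, had 166, 175 and 197 in the control and 187, 222 and 247 with EGCG. Its highest control library lay above its lowest EGCG library. The log2 fold change was 0.33 ± 0.0651 (SE, edgeR adjusted p = 0.00299), and neither set of 3 replicates passed on its own (0.38 and 0.28).

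**Figure D2:**
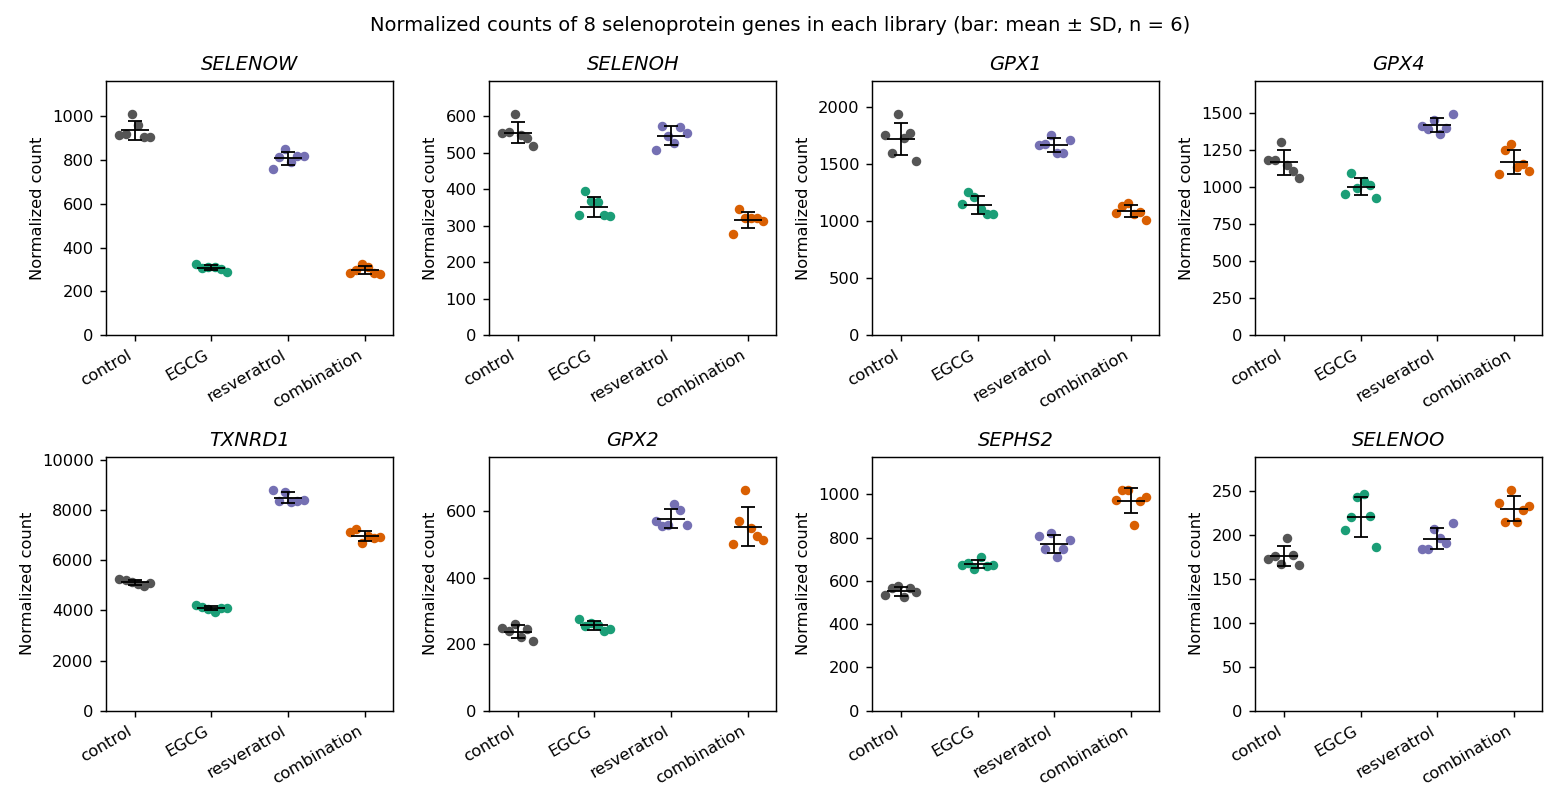
Normalized count of 8 selenoprotein genes in each of the 24 libraries, by group, on axes from 0. Dots are libraries and bars are the mean ± SD of 6; SELENOW, SELENOH and GPX1 are low in both groups with EGCG, GPX2 is high in both groups with resveratrol, TXNRD1 moves down with EGCG and up with resveratrol, and SEPHS2 is highest with both agents.

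The exact permutation test over libraries, 2-sided on the mean log2 CPM, gave 0.00216 for SELENOW, SELENOH, GPX1, TXNRD1, SELENOT and SEPHS2, the smallest p that 6 against 6 libraries can give. It gave 0.00433 for GPX4 and SELENOO. The groups did not overlap for 6 of the 18 selenoproteins, beside 1.63% of all tested genes. The other 10 tested selenoproteins had log2 fold changes from -0.17 for SELENON to 0.11 for GPX2 with EGCG. SELENON, an endoplasmic reticulum protein of calcium handling, missed the limit with an edgeR adjusted p of 0.121, and its exact permutation p was 0.0195. It passed with DESeq2, with every gene of at least 1 count, with the replicate number as a block, and with a term for the 2 sets of replicates. It also passed without control replicate 5, EGCG replicate 1 or 6, or combination replicate 3.

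By family, 2 of 3 tested glutathione peroxidases fell with EGCG, GPX1 and GPX4, while GPX2, the epithelial form, did not pass. Of the thioredoxin reductases TXNRD1 fell, and TXNRD2 of mitochondria and TXNRD3 were at -0.05 and -0.03. Of 5 tested proteins with a thioredoxin-like fold, SELENOW, SELENOH and SELENOT fell, and SELENOM and SELENOF of the endoplasmic reticulum lumen did not pass. None of the 4 membrane selenoproteins SELENOK, SELENOS, SELENOI and SELENON passed the edgeR test, beside 1.76% of all tested genes. Of these 4, 1 (SELENON) had an unadjusted p under 0.05 and passed with DESeq2. Summed over the 24 selenoprotein genes, the normalized counts were 14827, 15338 and 15993 (lowest, median and highest library) in the control and 12426, 12558 and 12891 with EGCG, ranges that did not overlap. Without TXNRD1, the most counted, the sums were 9720, 10156 and 10859 in the control and 8417, 8490 and 8741 with EGCG.

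The effect of EGCG was also measured beside resveratrol, by comparing the combination with resveratrol alone, which shares no library with the first comparison. Here 10 of 18 selenoproteins changed, 8 lower and 2 higher with the combination, beside 7.86% of all tested genes (3.86% lower and 4.01% higher). The median log2 fold change was -0.10, and over all tested genes it was -0.0011. All 8 selenoproteins that changed with EGCG alone changed in the same direction again. SELENON and TXNRD2 were the other two.

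SELENOW had 759, 815 and 850 normalized counts (lowest, median and highest) with resveratrol and 279, 290 and 324 with the combination. These ranges were far apart, and the log2 fold change was -1.45 ± 0.0427 (SE, edgeR adjusted p = 1.50e-24). SELENOH had 509, 551 and 574 with resveratrol alone and 277, 321 and 346 with the combination, a log2 fold change of -0.79 ± 0.0510 (SE, edgeR adjusted p = 1.63e-13). GPX1 had 1600, 1676 and 1756 with resveratrol alone and 1013, 1079 and 1159 with the combination, a log2 fold change of -0.62 ± 0.0463 (SE, edgeR adjusted p = 8.19e-12). None of these 3 overlapped between the groups.

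TXNRD1 was lower with the combination than with resveratrol, with a log2 fold change of -0.29 ± 0.0246 (SE, edgeR adjusted p = 2.11e-10), and GPX4 with one of -0.28 ± 0.0446 (SE, edgeR adjusted p = 7.78e-05). SELENOT was lower with a log2 fold change of -0.36 ± 0.0516 (SE, edgeR adjusted p = 1.02e-05), which was -0.50 within replicates 1 to 3 and -0.21 within replicates 4 to 6. SELENON was lower at -0.29 ± 0.0507 (SE, edgeR adjusted p = 2.28e-04). TXNRD2 was lower at -0.16 (edgeR adjusted p = 0.0535), a call that was lost in 7 of 37 alternative analyses, among them both sets of replicates (-0.15 and -0.16). SEPHS2 was higher by 0.33 ± 0.0401 (SE, edgeR adjusted p = 4.07e-07) and SELENOO by 0.23 ± 0.0636 (SE, edgeR adjusted p = 0.0223), a call lost within replicates 4 to 6 (0.17). The groups did not overlap for 9 of 18 selenoproteins, beside 3.19% of all tested genes.

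Set side by side, the log2 fold changes of EGCG alone and of EGCG beside resveratrol had the same sign for 15 of 18 selenoproteins and a Pearson correlation of 0.97 across these 18 genes, 0.95 without SELENOW. Across all tested genes, most of them not called with EGCG, the sign was shared by 60.4% and the correlation was 0.23. Of the 158 tested genes called in both comparisons, 153 shared the sign, as did 8 of the 8 selenoproteins called in both. Sharing the sign among called genes was thus not particular to selenoproteins. Genes are not independent replicates, and these are descriptions. For the 8 factors the sign was shared by 7 and the correlation was 0.51.

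**Figure D3:**
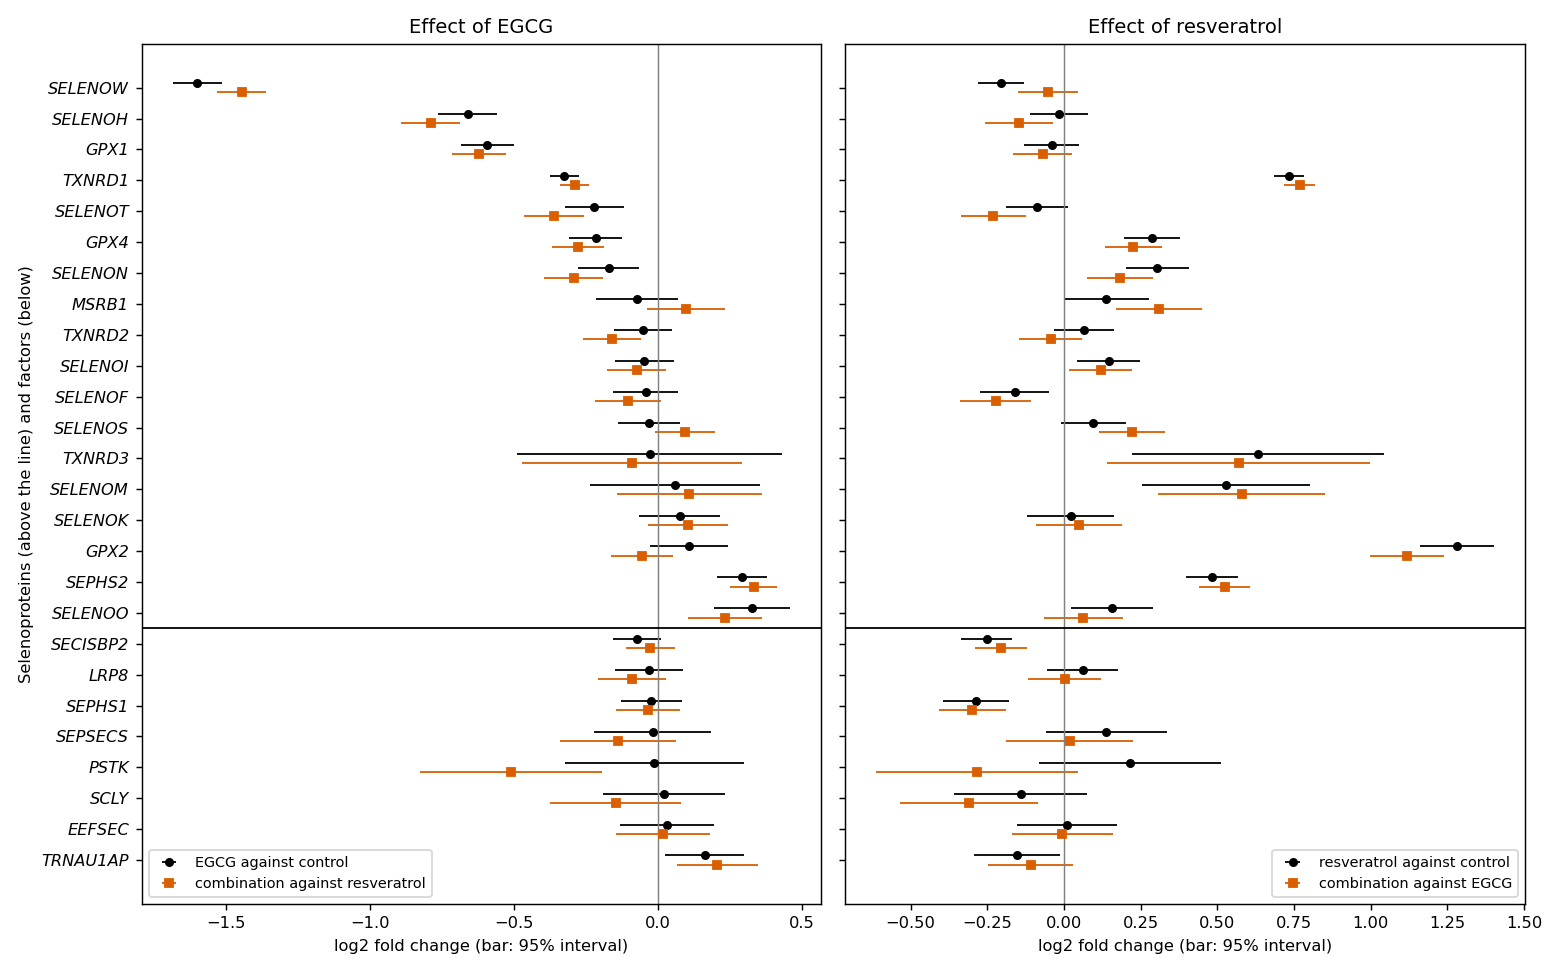
Fitted log2 fold change of each tested member with its 95% interval. The left panel shows EGCG against the control (black circles) and the combination against resveratrol (orange squares), and the right panel resveratrol against the control (black) and the combination against EGCG (orange). SELENOW, SELENOH and GPX1 lie left of 0 for EGCG in both settings, and GPX2 and TXNRD1 lie right of 0 for resveratrol; the edgeR p of PSTK was larger than its interval implies.

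The place of the selenocysteine codon was compared with these changes. In 10 of the 18 tested selenoproteins the first such codon lay over 55 bases upstream of the last exon junction, the distance at which a stop codon is commonly taken to expose an mRNA to nonsense-mediated decay. With EGCG, 5 of these 10 fell and none of them rose. The median of their log2 fold changes was -0.19. The 5 were SELENOW, SELENOH, GPX1, GPX4 and SELENOT, whose codons lay 243, 267, 105, 342 and 470 bases upstream. In the other 8 the codon lay closer to the junction or in the last exon. Of these TXNRD1 fell, SEPHS2 and SELENOO rose, and the median was -0.03.

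Beside resveratrol, 7 of the 10 were lower with EGCG, the same 5 with SELENON and TXNRD2, and the median was -0.28. In TXNRD2 the ordinary stop codon also lay over 55 bases upstream, at 65 against 71 for the selenocysteine codon, so its place is not set apart by the latter. Of the other 8, TXNRD1 was lower and SEPHS2 and SELENOO were higher, and the median was 0.10. The 10 were not uniform. GPX2, whose codon is 102 bases upstream in an exon arrangement like that of GPX1, had 211, 243 and 260 normalized counts (lowest, median and highest) in the control and 239, 256 and 276 with EGCG, ranges that overlapped. SELENOF and SELENOM, with codons 78 and 135 bases upstream, did not pass in either comparison. These counts are a description of few genes and were given no test. None of 13 nonsense-mediated decay factors passed with EGCG alone in edgeR or DESeq2, and 1 had an unadjusted p under 0.05. None of 13 is near the 1.76% of all tested genes called in edgeR. Beside resveratrol 2 of the 13 were higher with EGCG, SMG5 (0.13) and SMG9 (0.22), where 4.01% of all tested genes were higher. The median log2 fold change of the 13 was 0.0090 in that comparison. A part of decay in these changes was not tested.

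**Figure D4:**
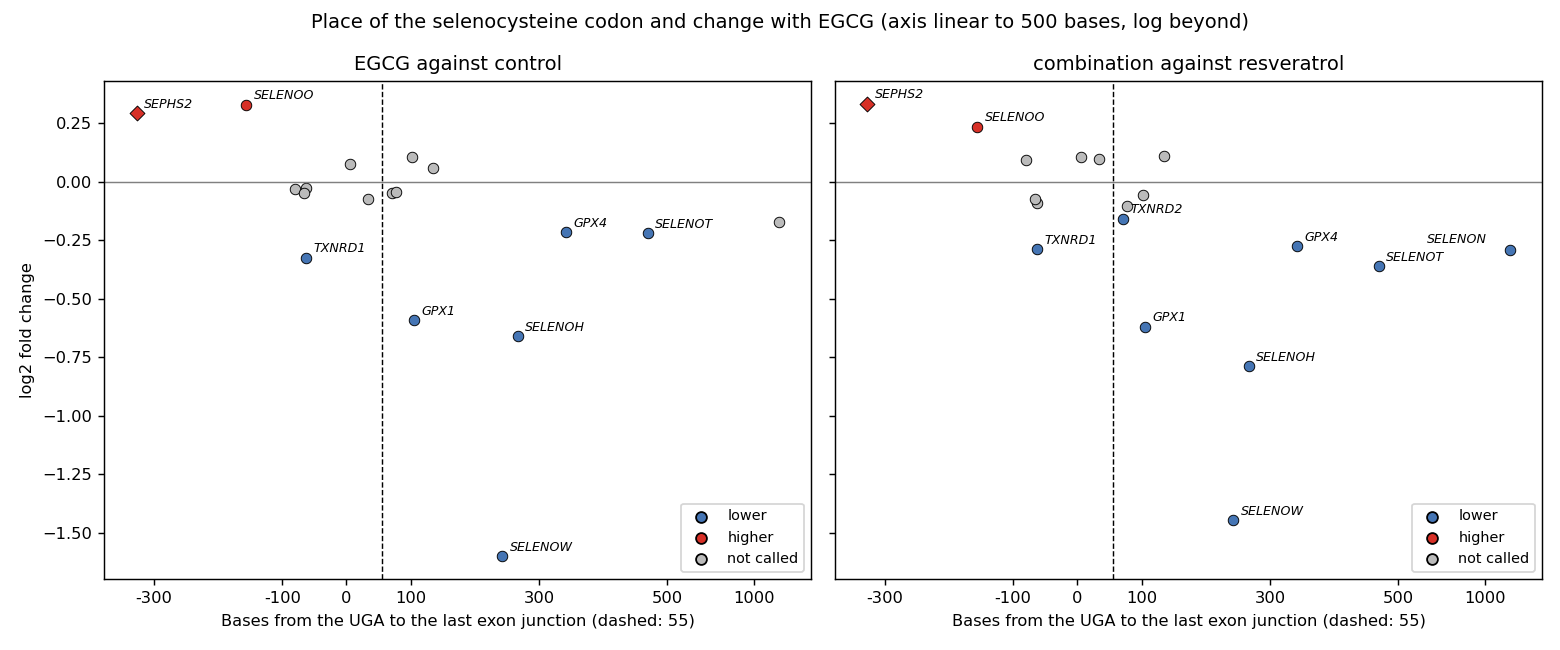
Log2 fold change of each tested selenoprotein with EGCG alone (left) and beside resveratrol (right), against the distance in bases from its first selenocysteine codon to the last exon junction, with positive values upstream. Blue points were lower, red points higher and grey points not called, and the dashed line marks 55 bases; SEPHS2 (diamond) has no junction and is placed by its distance from the transcript start.

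Resveratrol moved the selenoproteins mostly upward. Of 18 tested, 12 changed, 10 higher and 2 lower, beside 56.9% of all tested genes (28.9% higher and 28.0% lower). The share called is near that of all genes. The median log2 fold change was 0.14, and over all tested genes it was 0.0037. The groups did not overlap for 7 of the 18, beside 31.1% of all tested genes.

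GPX2, the glutathione peroxidase of epithelia and a known NRF2 target, rose most. Its normalized count was 211, 243 and 260 (lowest, median and highest) in the control and 557, 564 and 622 with resveratrol. The ranges were far apart, with a log2 fold change of 1.28 ± 0.0594 (SE; 2.43-fold; edgeR adjusted p = 1.54e-19). TXNRD1, also a known NRF2 target, rose from 4985, 5121 and 5268 to 8335, 8400 and 8815 without overlap. Its log2 fold change was 0.73 ± 0.0248 (SE; 1.66-fold; edgeR adjusted p = 1.33e-23). SEPHS2 went from 526, 557 and 576 to 708, 769 and 822, again without overlap, a log2 fold change of 0.48 ± 0.0421 (SE, edgeR adjusted p = 4.52e-12).

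GPX4 and SELENON rose with resveratrol by 0.29 ± 0.0445 (SE, edgeR adjusted p = 1.27e-06) and 0.30 ± 0.0503 (SE, edgeR adjusted p = 3.82e-06) on the log2 scale, and both groups of libraries were separate from the control. TXNRD3, a reductase best known from testis, rose by 0.63 ± 0.203 (SE, edgeR adjusted p = 0.00882) and SELENOM by 0.53 ± 0.135 (SE, edgeR adjusted p = 0.00119). Both had few counts and overlapping groups, with 10.2 to 15.7 normalized counts of TXNRD3 in the control and 12.4 to 24.8 with resveratrol. TXNRD3 did not pass within replicates 1 to 3 (0.40). SELENOI, an enzyme of ethanolamine phospholipid synthesis, SELENOO and MSRB1, a methionine sulfoxide reductase, rose by 0.15, 0.16 and 0.14 (edgeR adjusted p = 0.0146, 0.0429 and 0.0840). The MSRB1 call was lost in 17 of 37 alternatives, among them both sets of replicates (0.11 and 0.17). The SELENOO call was lost in 5, which were both sets of replicates (0.16 in each), every gene of at least 1 count (0.15), and leaving out resveratrol replicate 3 (0.14) or 6 (0.13).

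SELENOW fell slightly with resveratrol, with a log2 fold change of -0.21 ± 0.0371 (SE, edgeR adjusted p = 1.44e-05), and every resveratrol library lay below every control library. SELENOF, a partner of glycoprotein folding in the endoplasmic reticulum, fell with a log2 fold change of -0.16 ± 0.0557 (SE, edgeR adjusted p = 0.0149). This call of SELENOF was lost within replicates 1 to 3 (-0.08), without control replicate 5 (-0.11) and with scaling by library size alone (-0.07). SELENOH and GPX1, which fell with EGCG, were at -0.02 and -0.04 with resveratrol. Scaling by library size alone moved the median of all tested genes to 0.09 with resveratrol, 0.08 for the combination against the control and 0.07 for the combination against EGCG, and it was -0.0064 for the combination against resveratrol. Under it, with resveratrol, 12 selenoproteins rose and 1 fell.

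**Figure D5:**
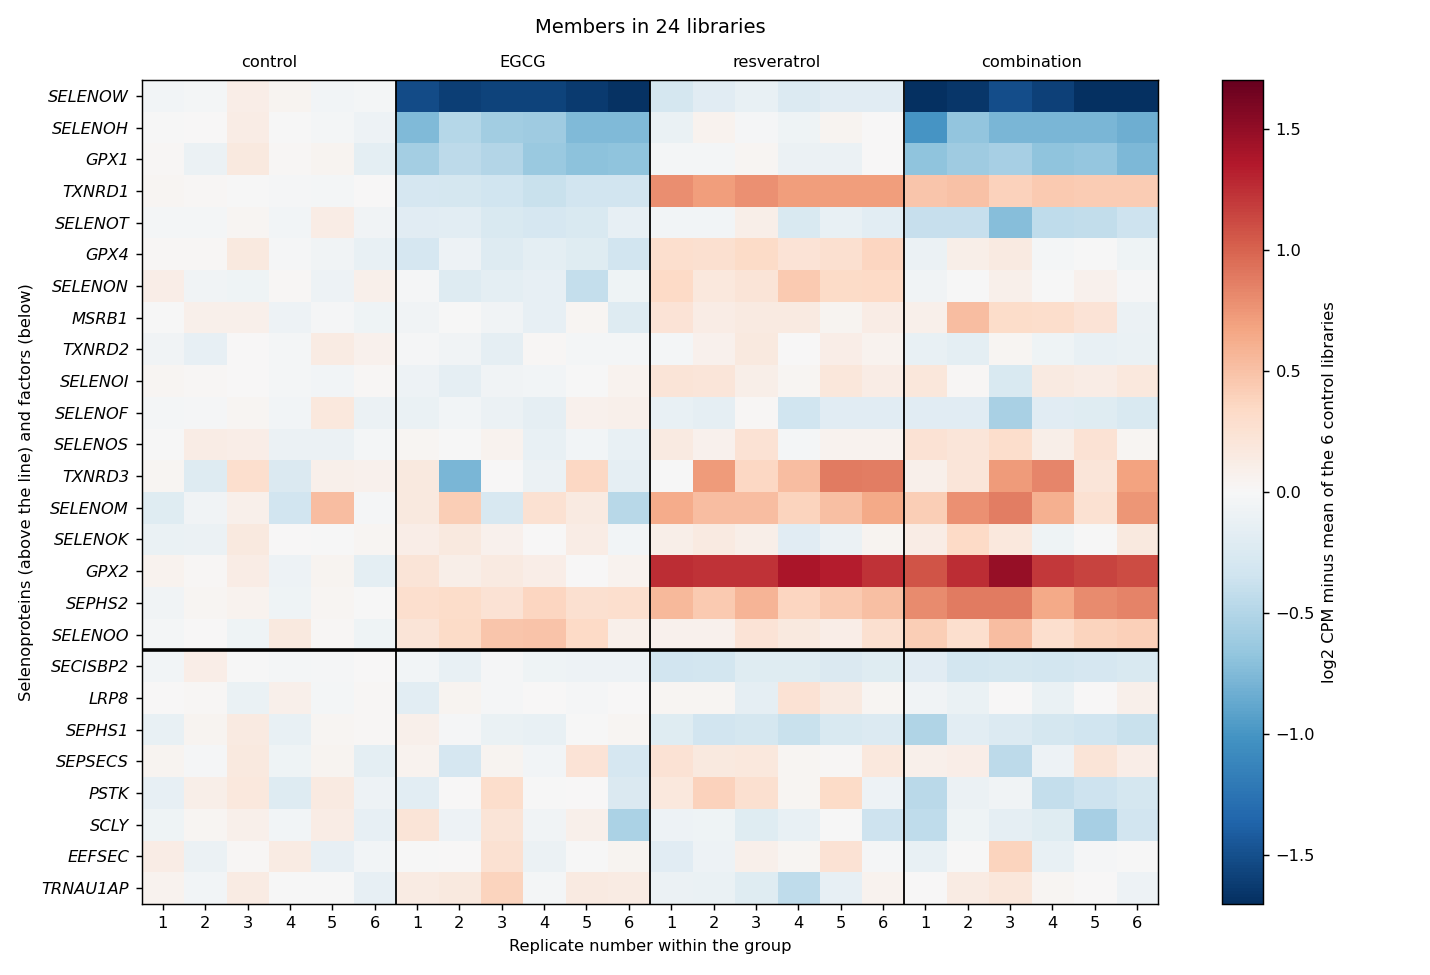
Log2 CPM of the 26 tested members in each of the 24 libraries, minus the mean of the 6 control libraries; red is higher and blue lower, with selenoproteins above the line and factors below, each ordered by the change with EGCG. The rows of SELENOW, SELENOH and GPX1 are blue in all 12 libraries with EGCG, and those of GPX2 and TXNRD1 are red in all 12 libraries with resveratrol.

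The combination against the control changed 13 of 18 selenoproteins, 8 higher and 5 lower, beside 59.8% of all tested genes (29.9% in each direction). This comparison shares its control libraries with both single agents, so their values are only set side by side. SELENOW, at 279, 290 and 324 normalized counts (lowest, median and highest), had a log2 fold change of -1.65 ± 0.0423 (SE, edgeR adjusted p = 2.12e-27), SELENOH one of -0.81 and GPX1 one of -0.66. SELENOT and SELENOF also fell, with values of -0.45 and -0.26. GPX2 rose by 1.23 ± 0.0602 (SE, edgeR adjusted p = 4.73e-19). The rise of TXNRD3 (0.54) was not called within replicates 1 to 3 (0.38). SEPHS2, which rose with each agent, reached 859, 981 and 1021, above every library of the other 3 groups, with a log2 fold change of 0.82 ± 0.0416 (SE; 1.76-fold; edgeR adjusted p = 1.36e-18).

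TXNRD1 moved in opposite directions with the agents and lay between them with both, at 6693, 6946 and 7245 normalized counts (lowest, median and highest). That was above every control library and below every resveratrol library, a log2 fold change of 0.44 ± 0.0248 against the control (SE, edgeR adjusted p = 1.73e-17). GPX4 and SELENON, which rose with resveratrol, were at 0.01 with the combination, with 95% intervals of -0.08 to 0.10 and -0.09 to 0.12. SELENOS, which takes part in the export of misfolded proteins from the endoplasmic reticulum, and SELENOK, of the same membrane, were at 0.19 (edgeR adjusted p = 0.00219) and 0.13 (edgeR adjusted p = 0.124). Over all 24 selenoprotein genes the summed normalized counts of resveratrol libraries were 18823, 19426 and 20247 (lowest, median and highest), and those of combination libraries 15917, 16051 and 16761. Without TXNRD1 the combination had 9035, 9154 and 9516, below the 9720 of the lowest control library.

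Against EGCG alone, the combination changed 13 of 18 selenoproteins, 10 higher and 3 lower, beside 57.8% of all tested genes (28.7% higher and 29.1% lower). GPX2 was higher by a log2 fold change of 1.12 and TXNRD1 by 0.77. SELENOT, SELENOF and SELENOH were lower, at -0.23, -0.22 and -0.15. The call of SELENOH in this comparison was lost within replicates 4 to 6 (-0.09), without EGCG replicate 2 (-0.09) and with scaling by library size alone (-0.07). Within replicates 1 to 3 the calls of SELENON (0.14) and SELENOI (0.08) were lost, and that of TXNRD3 was lost in either set (0.58 and 0.56). The SELENOI call was also lost with only the groups compared (0.12) and without combination replicate 1 (0.09), 4 (0.10), 5 (0.11) or 6 (0.10). SELENOW was at -0.05 (95% interval -0.15 to 0.05) and GPX1 at -0.07 (-0.17 to 0.03).

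The interaction term compares the log2 fold change of the combination with that of EGCG added to that of resveratrol. None of 18 selenoproteins and none of 8 factors passed in edgeR or in DESeq2, beside 0.265% of all tested genes in edgeR. At an unadjusted p under 0.05 there was 1 selenoprotein and no factor. It was SELENOW, whose combination value was above the sum by 0.15 (95% interval 0.03 to 0.28, edgeR adjusted p = 0.493). The intervals for GPX1, SELENOH and TXNRD1 were -0.16 to 0.10, -0.27 to 0.02 and -0.04 to 0.11.

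The 8 factors changed less. With EGCG alone none passed in edgeR or DESeq2, and 1, TRNAU1AP, had an unadjusted p under 0.05. None of 8 is near the share of all tested genes, of which 1.76% were called in edgeR. Their log2 fold changes ran from -0.07 for SECISBP2 to 0.16 for TRNAU1AP, with a median of -0.02. The exact permutation p was 0.0195 for SECISBP2, 0.0368 for TRNAU1AP and at least 0.578 for the other factors. The 95% intervals of SEPHS1, SECISBP2, LRP8 and EEFSEC were -0.13 to 0.08, -0.15 to 0.01, -0.15 to 0.09 and -0.13 to 0.20, none of which reaches the size of the falls of SELENOW, SELENOH or GPX1. SEPSECS, PSTK and SCLY had wider intervals. Summed over the 8 factors, normalized counts were 1618, 1640 and 1729 (lowest, median and highest) in the control and 1579, 1651 and 1735 with EGCG, overlapping throughout.

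With resveratrol 3 of 8 factors fell and none rose, beside 28.0% of all tested genes lower and 28.9% higher. SEPHS1, a relative of SEPHS2 without selenocysteine and without known selenophosphate synthesis, had 393, 433 and 477 normalized counts (lowest, median and highest) in the control and 326, 352 and 371 with resveratrol. These ranges did not overlap, and the log2 fold change was -0.29 ± 0.0529 (SE, edgeR adjusted p = 2.07e-05). SECISBP2, which binds the SECIS element, had 389, 395 and 433 in the control and 319, 341 and 347 with resveratrol. It did not overlap either, with a log2 fold change of -0.25 ± 0.0410 (SE, edgeR adjusted p = 2.92e-06). TRNAU1AP, which binds the selenocysteine tRNA, fell with a log2 fold change of -0.15 (edgeR adjusted p = 0.0646), a call lost in 13 of 37 alternatives, among them replicates 4 to 6 (-0.10). SNHG12 lies over TRNAU1AP on the other strand with 47.3% as many counts and a log2 fold change of -0.55 with resveratrol, which was called. The strand setting of the counting was not given in the sources used here.

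SEPHS1 and SECISBP2 were also lower with the combination, at -0.32 and -0.28 against the control and at -0.30 and -0.21 against EGCG. The third factor lower in both comparisons was SCLY, the lyase that frees selenium from selenocysteine, at -0.29 (edgeR adjusted p = 0.0269) and -0.31 (edgeR adjusted p = 0.0187). These 3 of 8 factors compare with 29.9% of all tested genes lower against the control and 29.1% against EGCG, shares that are near. The first call of SCLY was lost within replicates 1 to 3 (-0.23) and with scaling by library size alone (-0.20), the other within replicates 4 to 6 (-0.26). The median of the 8 factors was -0.07 with resveratrol, -0.15 with the combination and -0.16 for the combination against EGCG. For the combination against resveratrol it was -0.06. In that comparison 2 of 8 factors passed, beside 7.86% of all tested genes (3.86% lower and 4.01% higher). PSTK was lower at -0.51 (edgeR adjusted p = 0.0935) and TRNAU1AP higher at 0.21 (edgeR adjusted p = 0.0799). PSTK had 18.1, 22.8 and 25.9 normalized counts with resveratrol alone and 13.5, 15.0 and 18.4 with the combination, and these ranges overlapped. The PSTK call was lost in 14 of 37 alternatives and that of TRNAU1AP in 10, both sets of replicates among them in each case (-0.51 and -0.50 for PSTK, 0.26 and 0.15 for TRNAU1AP). SEPSECS, EEFSEC and the selenoprotein P receptor LRP8 passed in none of the comparisons.

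Of 15 further genes of the pathway, 12 were tested. With EGCG alone CBS, which makes cystathionine from homocysteine, was higher by 0.19 (edgeR adjusted p = 0.0168) and NCL, the nucleolar protein nucleolin, was lower at -0.10 (edgeR adjusted p = 0.0288). These 2 of 12 compare with 1.76% of all tested genes called. With resveratrol 4 were higher and 7 lower, beside 28.9% and 28.0% of all tested genes, led by CTH (0.68), CBS (0.57), NCL (-0.47) and XPO1 (-0.26). Of 9 relatives that carry cysteine in place of selenocysteine, 7 were tested. None passed with EGCG in edgeR or DESeq2, and 2 had an unadjusted p under 0.05. That is near the 1.76% of all tested genes called in edgeR. With resveratrol 3 of the 7 rose and 2 fell, beside 56.9% of all tested genes called, with MSRB2 at 0.64 and MSRB3 at -0.39. Of 12 thioredoxin and glutathione partners, 1 changed with EGCG, the thioredoxin inhibitor TXNIP, which rose by 0.28 (edgeR adjusted p = 3.49e-07). The share of all tested genes called was again 1.76%. With resveratrol 5 rose and 3 fell, beside the same 56.9%, with glutaredoxin GLRX at 1.21 and glutathione reductase GSR at 0.50.

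NRF2 is the transcription factor of the antioxidant response, and 11 of its known targets outside the selenoproteins were examined because GPX2 and TXNRD1 are targets too. With resveratrol 11 of 11 rose, beside 28.9% of all tested genes. The median of their log2 fold changes was 0.62, and the largest values were those of GCLC (1.42) and OSGIN1 (1.41). With EGCG 1 of 11 rose, GCLC by 0.12 (edgeR adjusted p = 0.0774), beside 0.905% of all tested genes, and the median was -0.02. The core of the antioxidant response element that NRF2 binds, TGACNNNGC on either strand, was searched from 250 bases before to 50 after each start in RefSeq's GRCh38.p14 promoters. It was in 16.1% of the 27305 genes of that table, in 5 of 22 selenoproteins found there (GPX2, TXNRD1, SELENOK, SELENON and SELENOP) and in 2 of 7 factors (SECISBP2 and SCLY). The 5 of 22 are 22.7%, not far from the share of all genes. The windows of the members that rose most with resveratrol are shown 5′ to 3′ on the strand of the gene, with the match in capitals.
GPX2: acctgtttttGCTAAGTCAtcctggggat
TXNRD1: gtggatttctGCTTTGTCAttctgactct
The GPX2 window lay at chr14:64942849-64942877 (minus strand) and its match began 122 bases before the start. The TXNRD1 window, at chr12:104286920-104286948 (plus strand), belongs to the second start of that gene in the table, with the match beginning 102 bases before it. The first start of TXNRD1 had 2 further matches, not shown, beginning 99 and 8 bases before it. Of the other members that rose with resveratrol, SELENON had a match, and TXNRD3, SEPHS2, GPX4, SELENOI and MSRB1 had none. SELENOM and SELENOO were not found in the promoter table. SELENOK, which was not called with resveratrol, and SECISBP2, which fell, each had a match. A match is a description of the sequence and not a measured binding site.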

How the data were processed

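The authors made stranded mRNA libraries (TruSeq) from the RNA of MDA686TU cells (24 libraries). Reads were trimmed (Trimmomatic 0.36) and aligned (HISAT2 2.0.4, GRCh38), and the authors also used SAMtools 1.3.1 and DESeq2 1.20.0, as the methods and the submitters' processing notes give. The counting program, annotation release, strand setting and treatment of reads that match several genes are not given in the sources used here. The authors deposited raw counts per gene, normalized counts (a signal: the raw count divided by 1 size factor per library, as checked) and FPKM values.

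All 24 libraries entered 1 fit of the raw counts in edgeR 4.0.16 (R 4.3.3, TMM, filterByExpr, quasi-likelihood test, group means), and p-values were adjusted over all 15476 tested genes. The SE is the log2 fold change divided by the root of its F value. The biological coefficient of variation was 5.32%. The steps were tested on simulated data. Normalized counts served to show each library and FPKM to compare genes. Exact permutation tests used mean log2 CPM with a prior count of 2.

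The members and lists were chosen with earlier results of these data known. All 32 members may be named. From other lists at most the 2 largest rises and 2 largest falls called in a comparison are named, with any gene a result turns on. Alternatives were DESeq2 1.42.0, other scalings and filters, other limits on p, only the groups compared, the replicate number as a block, the replicate sets as a term or alone, near-identical copies added to their gene, and each library left out. Replicate numbers were not taken as pairs, since the labels give no pairing. Correlations of same-numbered libraries ran from -0.0025 to 0.131, with a median per comparison of 0.024 to 0.061. For other numbers, the median correlation of a comparison was 0.025 to 0.046 within a set of replicates (1 to 3 or 4 to 6). Between the sets it was -0.056 to -0.021. Same-numbered libraries had a higher median than other numbers within a set in all comparisons but the combination against resveratrol. The main fit had no term for the sets.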

Additional observations from a re-analysis of the deposited data

Results flagged for a closer look

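Within groups of 6 libraries, 7 of 104 combinations of a tested member and a group held 1 library far from the other 5 by Dixon's criterion, where about 5.2 would by chance at 1 in 20. Combination replicate 3 was such a library 3 times: it was lowest for SELENOT, with 717 normalized counts, lowest for SELENOF, with 675, and highest for EEFSEC, with 243. Without it the log2 fold change of the combination against resveratrol was -0.31 for SELENOT in place of -0.36, and against the control it was -0.21 for SELENOF in place of -0.26. The others were SEPHS2 at 859 in combination replicate 4, SELENOO at 197 in control replicate 4, SECISBP2 at 433 in control replicate 2 and LRP8 at 231 in EGCG replicate 1.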

How the results depend on the processing

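The falls of SELENOW, SELENOH, GPX1 and TXNRD1 and the rise of SEPHS2 with EGCG kept their call in all 37 alternatives, GPX4 and SELENOT in 36 and SELENOO in 35. Over all members and comparisons, 5600 single values kept their side of the limits, 143 of them with another sign but called in neither analysis, while 91 lost the call, 49 gained it and no called value changed sign. Scaling by library size alone moved the median log2 fold change of selenoproteins to 0.23 with resveratrol, 0.18 with the combination and 0.23 for the combination against EGCG, and that of the factors to 0.023, -0.070 and -0.082. This scaling also moved the median of all tested genes up, to 0.092, 0.081 and 0.074 in these comparisons. In replicates 1 to 3 the median of selenoproteins was -0.11 with EGCG and -0.17 for the combination against resveratrol, and that of the factors was -0.19 with the combination and -0.022 for the combination against resveratrol. In replicates 4 to 6 these medians were -0.16 for selenoproteins and -0.11 for factors in the combination against resveratrol, and 0.0013 for factors with resveratrol. The 2 factors called in the combination against resveratrol became 1 with DESeq2 and with every gene that had at least 1 count. They became 0 with only the groups compared, in either set of replicates, and at an adjusted p under 0.05. They ranged from 0 to 2 when 1 library was left out, 0 without resveratrol replicate 2, 3 or 5. With the unadjusted p alone, 1 factor passed with EGCG and 1 selenoprotein in the interaction. Beyond the scaling of all genes, fewer libraries or other limits, the cause of these shifts was not tested. With the replicate number as a block, 9 selenoproteins were called with EGCG (SELENON added), 13 with resveratrol, 13 with the combination, 10 for the combination against resveratrol and 13 against EGCG, and the factors called were 0, 3, 3, 2 and 3. The pairing of numbers had no basis in the labels, and in the comparison with EGCG 4 of 6 libraries correlated best with their own number. Depth limits TXNRD3, PSTK, SELENOM and SCLY, which had few counts.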
